A study of Amphimedon queenslandica with 124 samples.

Results

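The 120 genes described here are those of the demosponge Amphimedon queenslandica whose mean transcript level was highest in the free-swimming larva by the widest margin. Deposited counts were scaled to CPM, which gives every library the same total, and taken as log2(CPM + 1). The margin of a gene is its larval mean minus the highest mean among the 13 other stages. Of 36868 gene models in the table, 33001 had at least 1 count, 734 (2.22% of those with counts) had a margin above 0, and the 120 with the widest margins are the larval peak genes. The same larval and stage means that chose them are given below as a description, without a test. The gene models carry identifiers only, which the files do not pair with gene names, so each is given by its identifier and no function can be stated.

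The study measured 124 single individuals, taken from the wild on the Great Barrier Reef (Heron Island) and staged by morphology, with no treatment named in the labels. CEL-seq, in which barcoded samples are pooled and transcripts are read at their 3′ ends, was used for all of them, so a count does not scale with gene length. A stage was given for 123 individuals. Embryos were at cleavage, then at brown, cloud and spot, and then at late spot, ring and late ring, with 7 individuals at each, and the free-swimming larvae numbered 13. Later individuals comprised 10 of settlement stage, 34 of mat-formation, 3 of chamber-formation, 6 of tent-pole-formation, 5 juveniles and 3 adults. All embryos and larvae are numbered from 1 to 100 in the labels. From settlement on, only individuals numbered 101 to 124 entered the choice of genes, which left 3 at settlement, 9 at mat-formation and 3 at each later stage. The individuals of those stages numbered 1 to 100, which are 7 at settlement, 25 at mat-formation, 3 at tent-pole-formation and 2 juveniles, had no part in it.

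Embryos of this sponge are brooded by the mother and hatch as a parenchymella larva, a solid, ciliated larva that swims but does not feed. It carries a ring of pigment cells with long cilia at its posterior end, steers away from light, and after a period of swimming becomes able to respond to settlement cues. It then settles and metamorphoses, and the larval body plan is rebuilt into a juvenile with chambers and canals. The larval stage is therefore set between the late ring embryo inside the mother and the settled post-larva.

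The larvae had total counts of 174505 to 981293, with a median of 653286, and all libraries ran from 1158 to 3059409. A whole individual was measured in each library, so fewer cells of a type and less RNA per cell cannot be told apart. Nothing in the labels says whether the individuals of a stage shared a mother, and the p-values below measure the spread between individuals. Late ring replicate 7 stood apart from the other late ring embryos in the larval peak genes, and values that rest on it are given with and without it. The individuals numbered 1 to 100 after the larva were mostly shallow, and values over those with at least 100000 counts are given beside the rest.

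Together the 120 genes took 8.39% ± 2.48 (SD, n = 13) of all counts in the larvae, from 3.97% in larva 7 through a median of 9.02% to 13.5% in larva 8. In late ring embryos they took 4.25% ± 2.54 (n = 7). That mean rests in part on late ring replicate 7, at 9.83%, and was 3.32% ± 0.696 (n = 6) without it, from 2.37% to 4.18%. At settlement the 3 individuals used held 3.28%, 3.67% and 4.70%. Every larva except larva 7 was above the late ring embryos other than replicate 7 and above the 3 settled individuals. The earlier embryo stages had means between 1.07% ± 0.245 (n = 7) at spot and 1.68% ± 0.388 (n = 7) at cleavage. From mat-formation on the means lay between 1.02% ± 0.141 (n = 3) at tent-pole-formation and 1.45% ± 0.163 (n = 9) at mat-formation. Juveniles were at 1.07% ± 0.0642 (n = 3) and adults at 1.06% ± 0.0682 (n = 3). The share was thus higher at late ring than in earlier embryos, highest in the larva, and near the embryo level again from mat-formation on. The choice of genes fixes where the peak lies.

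**Figure D1:**
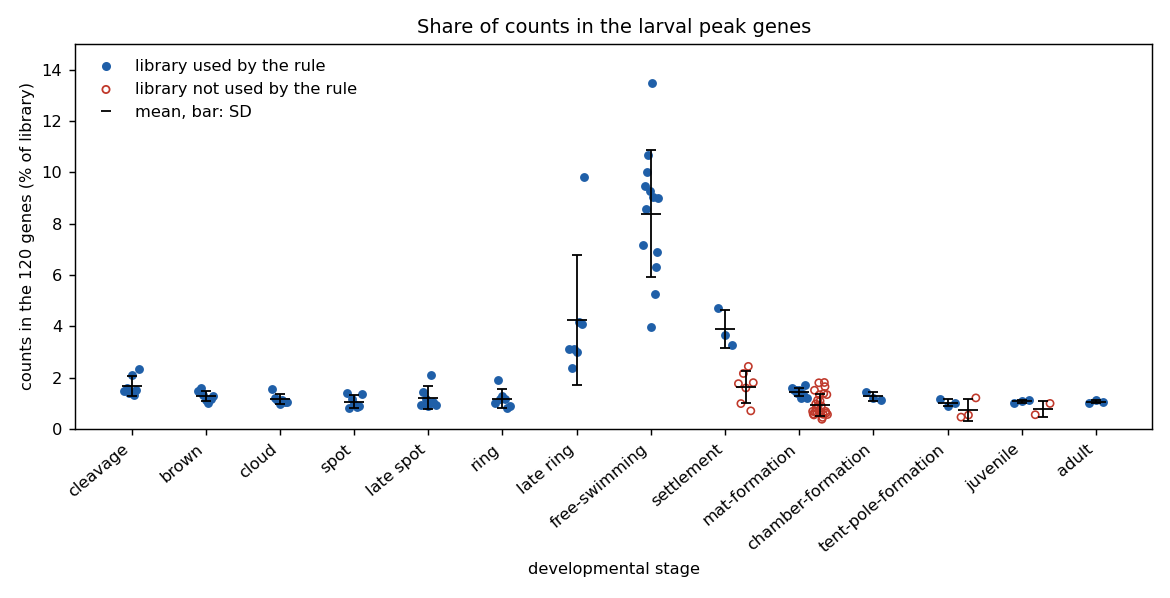
Share of each library's counts in the 120 larval peak genes (vertical axis, percent) at the 14 stages in order of development. Filled points are individuals used to choose the genes, open points are individuals not used, and bars are the mean and SD. The larvae lie from 3.97% to 13.5%, and the single late ring embryo at 9.83% is replicate 7.

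The share was carried to a large extent by 2 genes, Aqu2.1.34371_001 and Aqu2.1.22573_001, which held 43.8% ± 14.4 (SD, n = 13) of the counts in the 120 genes, from 17.2% to 67.0% over the larvae. Without them the share was 4.44% ± 0.798 in larvae (from 3.18% to 5.90%), 2.45% ± 1.91 (n = 7) in late ring embryos, 1.75% ± 0.558 (n = 6) in late ring embryos without replicate 7, and 1.99% ± 0.370 (n = 3) at settlement. The larvae were more alike in this remainder than in the full share. The typical larval peak gene was also highest in the larva, with late ring and settlement next. Through the earlier embryos its course differed from that of the share. The median over the 120 genes of the stage mean, on the log2(CPM + 1) scale, was lowest of the stages used at cleavage, at 2.69. It was 3.73 at spot, where the share among embryos was lowest. Later it was 4.32 at late ring, 5.81 in larvae, 4.31 at settlement, 3.49 at mat-formation and 3.45 in adults. A mean of 10 CPM or more was reached by 60 of the genes at cleavage, 78 at late ring, 87 in larvae, 76 at settlement and 61 in adults.

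The margins were narrow for most of the genes. They ran from 0.35 to 3.37 on the log2 scale with a median of 0.50, and 15 genes had a margin of 1 or more while 60 had one under 0.5. By level, 14 genes had a larval mean of 1000 CPM or more, 68 had 50 CPM or more and 33 were under 10 CPM. All 13 larvae had counts for 74 of the genes, 46 genes were missing from at least 1 larva, and 23 were seen in 7 larvae or fewer. Aqu2.1.23990_001 and Aqu2.1.22638_001 were each seen in larva 7 alone, with 5 and 4 counts. Aqu2.1.16309_001 and Aqu2.1.28142_001 held the same counts in every library, 3 in all for each, over 2 larvae. These 4 genes are named after their values were seen, and none of them had a count at another stage used. The list also depends on the libraries that set the later stages, and 52 of the 120 genes would be chosen again with all libraries of every stage.

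At the edge of the list, Aqu2.1.22638_001 and Aqu2.1.19867_001 were the last genes inside it, both with a margin of 0.35. Just outside it were Aqu2.1.36509_001 and Aqu2.1.10023_001, also at 0.35. The edge does not separate kinds of gene. Aqu2.1.19867_001 had a larval mean of 436.4 ± 316.3 CPM (SD, n = 13) and Aqu2.1.36509_001 one of 470.8 ± 147.1 CPM, each with settlement as the nearest other stage.

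Aqu2.1.29398_001 had the widest margin, 3.37. Its larval levels ran from 0 through a median of 68.7 to 307.5 CPM, with a mean of 104.7 ± 100.4 (SD, n = 13). Larva 7 had no count of it and larva 8 had the most. In embryos from cleavage to ring its stage means lay at 10.1 CPM (cloud) or less, and from settlement on at 9.53 CPM (settlement) or less. Late ring embryos averaged 31.1 ± 70.1 CPM (n = 7), since 1 of them reached 188.3 CPM, 3 had counts and the other four had none. Its levels in the larva and in late ring embryos therefore overlapped, although the stage means on the log2 scale were far apart.

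Aqu2.1.33581_001 followed, with a margin of 1.65 over late ring. Its larval levels ran from 1468 through a median of 2907 to 9584 CPM, with a mean of 3951 ± 2269 (SD, n = 13). Late ring embryos averaged 2780 ± 4982 CPM (n = 7), and 912.9 ± 717.9 (n = 6) without replicate 7, which had 13981. That embryo was above every larva, and 1 other late ring embryo, with 2254, was above the lowest larva. At settlement the gene averaged 911.5 ± 297.0 CPM (n = 3), with no overlap with the larvae, and in juveniles 160.0 ± 16.0 (n = 3). Aqu2.1.05610_001, the third by margin (1.57 over late ring), was present in 11 larvae at 0 to 149.0 CPM with a median of 43.9, and averaged 23.0 ± 36.8 CPM in late ring embryos and 7.36 ± 4.67 (n = 3) at settlement.

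The most counted larval peak gene was Aqu2.1.34371_001, with a margin of 0.90. It took 0.552% to 5.39% of all counts in a larva, and its mean of 29432 ± 14802 CPM (SD, n = 13) had larva 7 at the bottom with 5521. Late ring embryos had 5884 to 25535 CPM with a median of 12514. The settled individuals used had 7652, 13610 and 22866 CPM, and the 3 juveniles had 1278, 1353 and 1623. The larvae overlapped with both neighbouring stages and not with the juveniles. Its level did not rise steadily through brooding. It was 1352 ± 896 CPM (n = 7) at cleavage, 3505 ± 1573 (n = 7) at brown, and 303.6 to 2670 CPM in late spot embryos. The next, Aqu2.1.22573_001, averaged 10073 ± 13305 CPM (n = 13). Larva 8 alone had 51902 CPM of it, against 1319 to 17961 in the other 12, and the mean without larva 8 was 6588 ± 4561. Its margin was 0.59 over settlement, where it averaged 4209 ± 1253 CPM (n = 3).

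The genes were grouped by their nearest other stage, which is the stage with the highest mean after the larva. Settlement was nearest for 33 genes and late ring for 19, the stages on either side of the larva. Mat-formation was nearest for 10, cleavage for 9, adult for 8, juvenile for 7, cloud for 7, tent-pole-formation for 6, late spot for 5, brown for 4, ring for 3, chamber-formation for 2 and spot for 2. Another 5 genes had no counts at any other stage. Among all 734 gene models with a margin above 0, settlement was the nearest stage of 109, mat-formation of 88, cleavage of 61 and late ring of 54, and 159 had no counts at any other stage. Counts were seen in all 13 larvae for 28 of the 33 settlement genes and 14 of the 19 late ring genes, against 5 of the 9 cleavage genes. For 18 genes, counted here across these groups, the highest other mean was under 1 on the log2(CPM + 1) scale. These 18 had larval means of 0.675 to 4.86 CPM and none was seen in all 13 larvae. The widest margin among them was 1.08, that of Aqu2.1.32844_001, which averaged 4.79 ± 5.77 CPM with counts in 6 larvae.

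**Figure D2:**
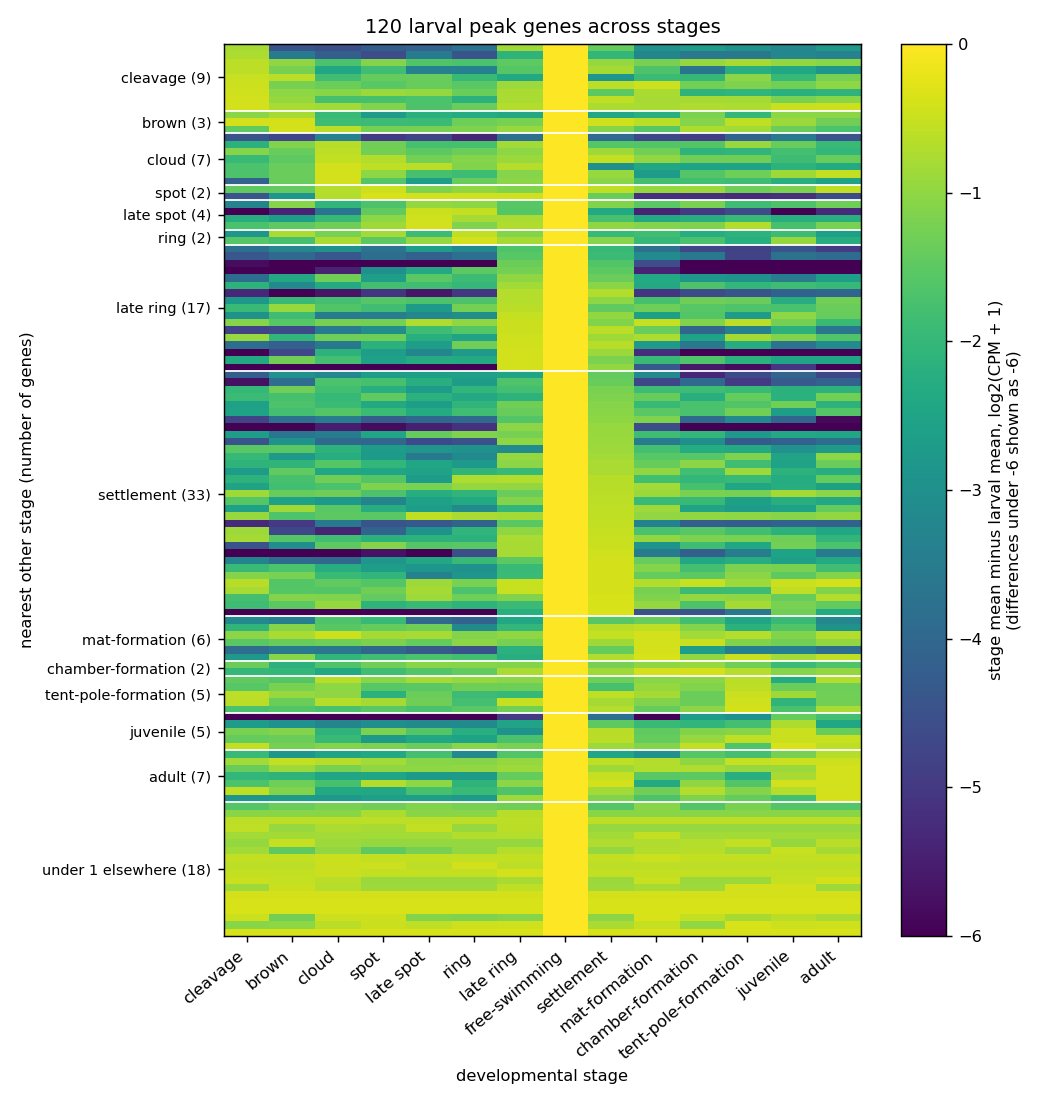
Stage means of the 120 genes (rows) at 14 stages (columns), as the difference from the larval mean on the log2(CPM + 1) scale, with lower values darker and differences under -6 shown as -6. Rows are grouped by the nearest other stage with the number of genes in brackets, and the 18 genes whose highest other mean is under 1 form the bottom group. The settlement group of 33 is the tallest block, and its rows are light at late ring, larva and settlement.

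Aqu2.1.23635_001, with the widest margin of the settlement group at 1.43, had 12.4 to 108.9 CPM in larvae with a median of 53.1. Settled individuals had 5.49, 17.1 and 38.8 CPM, so that the groups overlapped. It averaged 10.1 ± 7.38 CPM (n = 7) at late ring and 1.75 ± 0.535 (n = 3) in juveniles. Aqu2.1.27276_001, which heads the genes nearest to mat-formation with a margin of 1.39, had 63.0 to 319.2 CPM in larvae with a median of 199.8. Its other stages formed no slope toward the larva, with 62.6 ± 33.5 CPM (n = 7) at cloud, 9.48 ± 3.27 (n = 7) at ring, 45.1 ± 39.5 (n = 7) at late ring, 67.3 ± 13.7 (n = 9) at mat-formation and, before that, 58.5 ± 6.65 (n = 3) in settled individuals.

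Some genes had a second high stage far from the larva. Aqu2.1.23229_001 heads the cleavage group with a margin of 0.79. It had 896.3 to 3238 CPM in larvae with a median of 1855, and 660.9 to 2174 CPM at cleavage with a median of 1008. Between these it was at 80.8 ± 19.7 CPM (n = 7) at cloud, 144.3 ± 33.2 (n = 7) at ring and 1132 ± 590.9 (n = 7) in late ring embryos. Its level was thus high in the earliest embryo, low through the middle of brooding and high again around hatching. Aqu2.1.25608_001, which heads the juvenile group with a margin of 1.41, had 34.4 to 819.2 CPM in larvae with a median of 164.5. It had no count in the 7 ring embryos and averaged 1.90 ± 1.46 CPM (n = 9) at mat-formation. Late ring replicate 7 had 139.3 CPM and the other late ring embryos 9.37 or less. The gene had 0, 25.1 and 53.8 CPM in the settled individuals used and 5.47, 33.7 and 60.6 at chamber-formation. In the 3 juveniles it had 38.2, 60.3 and 81.4 CPM and in the 3 adults 9.19, 74.9 and 115.0, within the range of the larvae except for 1 adult.

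Among groups of 5 or more genes, those of late spot and tent-pole-formation had the least abundant heads. Aqu2.1.14323_001 was nearest to late spot with a margin of 0.95, at 40.1 ± 26.5 CPM (n = 13) in larvae and 30.4 ± 25.4 (n = 7) at late spot. Aqu2.1.33071_001 was nearest to tent-pole-formation with a margin of 0.62, at 6.43 ± 4.99 CPM (n = 13) in larvae and 3.20 ± 2.41 (n = 3) at tent-pole-formation. Both differences were smaller than the SD among larvae, and that of Aqu2.1.33071_001 was larger than the SD at tent-pole-formation. The nearest stage rests on log2 means. Late spot replicate 2 had 27.2 CPM of Aqu2.1.33071_001, on 4 counts, above every larva.

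No larval peak gene separated the larvae from the rest of development. For 0 of the 120 were all 13 larvae above each of the 73 other libraries used, and this held for 0.0% of all 33001 gene models with counts. All 13 larvae were above every late ring embryo for 1 gene, Aqu2.1.32257_001 (0.0273% of all gene models). They were above the 3 settled individuals for 10 genes (0.191% of all), above the 7 cleavage embryos for 31 (1.35% of all) and above the 3 juveniles for 47 (1.14% of all). The choice of genes favours such separation, so these counts are a description of how far the levels overlapped.

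Each larva was next set against genes chosen without it. The choice was repeated on the other 12 larvae, and the level in the left-out larva was compared with the highest other stage mean. The left-out larva was above it for 48 to 87 of the 120 genes so chosen, which is 40.0% to 72.5% with a median of 60.8%. For all gene models with counts the share was 3.46% to 14.5%, with a median of 6.65%. The lowest share was in larva 11 and the highest in larva 3. Larva 7 had the highest share of all gene models, 14.5%, and 45.8% of the chosen genes. In every larva the chosen genes were above the other stages more often than gene models in general, and in every larva a part of them was not. The other stage means are those that chose the genes as low outside the larva, so the difference from gene models in general is in part fixed by the choice. Only the level in the left-out larva is independent of it. The 120 genes chosen without a larva shared 98 to 110 genes with the full list.

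**Figure D3:**
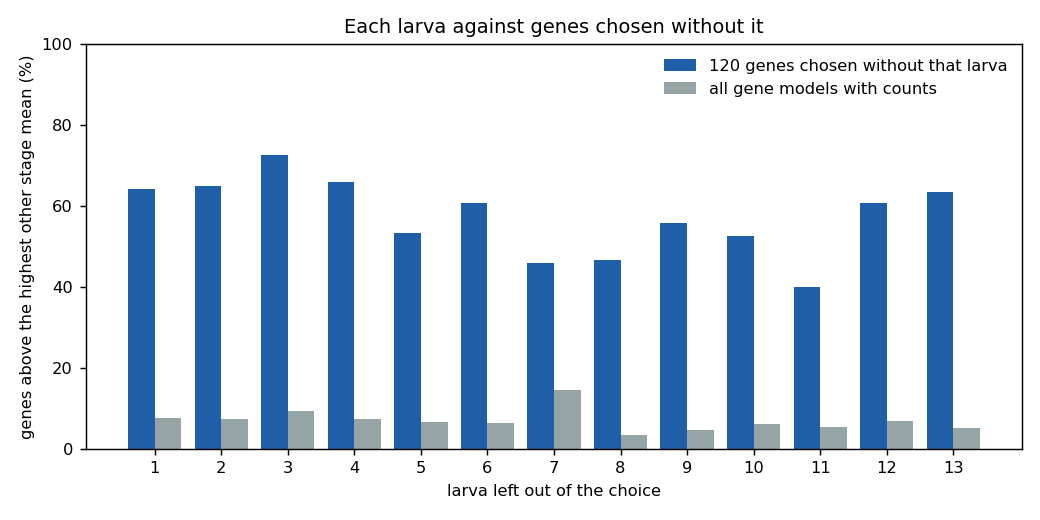
Percent of genes whose level in a left-out larva was above the highest mean of the 13 other stages, for each of the 13 larvae. Dark bars are the 120 genes chosen on the other 12 larvae and grey bars all 33001 gene models with counts. The dark bars run from 40.0% to 72.5% and the grey bars from 3.46% to 14.5%.

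Leaving out a larva took the margin of 3 of the 120 genes to 0 or below. They were Aqu2.1.19104_001 without larva 11, and Aqu2.1.23990_001 and Aqu2.1.22638_001 without larva 7, named here because the count is small. None of the 3 was seen in all 13 larvae.

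The spread among the 13 larvae was near that of other genes at the typical member and wider in the tail. For the 68 genes with at least 50 CPM the median SD of log2(CPM + 1) among larvae was 0.66, and over the 2397 gene models at that level it was 0.65. An SD above 1 was found for 20 of the 68 (29.4%), against 420 of the 2397 (17.5%). Which larva was highest differed from gene to gene. Among the 68 genes larva 1 was highest for 11, larvae 5 and 9 for 8 each, larva 6 for 7, larva 8 for 6 and larva 7 for 1. The genes also did not move as a block from larva to larva. The median Spearman correlation between 2 genes over the 13 larvae was 0.104 for the 2278 pairs among the 68, against 0.044 over all gene models at that level, and 1.36% of the pairs were above 0.7, against 0.995%. These correlations share the same 13 libraries and their depths, and are a description.

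The least variable of the 68 were Aqu2.1.30435_001, with an SD of 0.25, and Aqu2.1.25869_001, with 0.29. Aqu2.1.30435_001 had 644.5 to 1145 CPM in larvae with a median of 814.7, against 268.6 to 685.3 CPM at late ring and 525.7, 605.0 and 662.7 at settlement. The larvae overlapped with both stages only at their lowest levels, and with late ring only through replicate 7, since the other 6 embryos had 576.3 CPM or less. Aqu2.1.25869_001 had 157.0 to 279.2 CPM in larvae with a median of 221.7, and 43.1 to 661.0 CPM in late ring embryos. Late ring replicate 7 alone had 661.0 CPM, above every larva, and the other 6 averaged 104.2 ± 51.1 CPM with at most 160.1, which overlaps only the lowest larval levels.

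The most variable were Aqu2.1.10713_001, with an SD of 3.81, and Aqu2.1.24135_001, with 2.89. Aqu2.1.10713_001 had no count in larvae 8, 9, 11 and 13. It had 1.53, 5.43, 11.3 and 12.2 CPM in larvae 3, 4, 2 and 1, and 148.4, 362.5, 382.7, 412.6 and 598.1 in larvae 7, 10, 6, 5 and 12. No larva lay between 12.2 and 148.4 CPM. Among late ring embryos replicate 7 had 495.7 CPM, replicate 5 had 62.4 and the other five had 1.60 or less. Aqu2.1.24135_001 had 265.9 and 260.2 CPM in larvae 2 and 3, 46.1 or less in the others, and no count in larvae 4, 7, 10 and 12. Larvae without counts of the 1 gene were thus not those without counts of the other.

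For 11 of the 120 genes a single larva held more than 50% of the CPM summed over the larvae. Only Aqu2.1.36455_001 among these had at least 50 CPM. Larva 5 had 7140 CPM of it, against 133.5 to 403.4 in the other 12. Its mean was 764.6 ± 1917 CPM (SD, n = 13), and 233.3 ± 70.1 (n = 12) without larva 5. Its margin over late ring was 0.84, and 0.45 without larva 5.

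**Figure D4:**
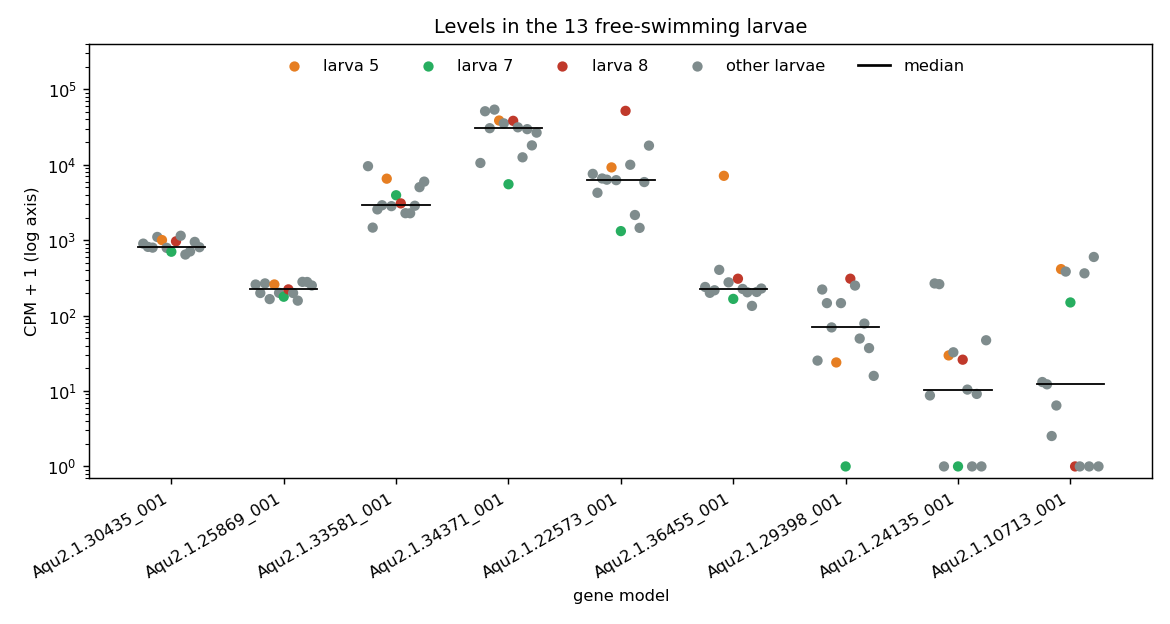
Levels of 9 larval peak genes in each of the 13 free-swimming larvae, as CPM + 1 on a log axis, with the median as a line and larvae 5, 7 and 8 coloured. Aqu2.1.30435_001 and Aqu2.1.25869_001 keep within narrow bands, Aqu2.1.36455_001 is high in larva 5 at 7140 CPM, Aqu2.1.22573_001 is highest in larva 8 at 51902 CPM, and Aqu2.1.10713_001 falls into larvae at 12.2 CPM or less and larvae at 148.4 CPM or more.

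Library depth among the larvae was tested with the log2 total count as the only term, over 5949 gene models of which 89 were larval peak genes. In edgeR's quasi-likelihood test with Benjamini-Hochberg adjustment 0 of the 89 rose with depth (0.0% of all tested) and 1 fell (0.0504% of all tested). DESeq2 gave the same 2 counts. An unadjusted p under 0.05 in edgeR was found for 5 of the 89 and for 373 of all 5949 tested. The gene that fell was Aqu2.1.36455_001, by 1.62 log2 units per doubling of the total (SE 0.276, adjusted p = 0.027 in edgeR). Larva 5 has the lowest total, 174505, and without it the slope was -0.17 and was not called. The call held when larva 6, 7 or 8 was left out and was lost when any other larva was.

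The individuals not used in the choice are new libraries of the later stages. The larval values they are set against are those that chose the genes as high in larvae, so the counts of genes below or apart from the larvae are in part fixed by the choice and are a description. At settlement the 7 individuals numbered 1 to 100 had 1.64% ± 0.613 of their counts in the 120 genes, from 0.703% to 2.44%, and the 4 of them with at least 100000 counts had 1.68% ± 0.718. These lie below the 3 settled individuals numbered 101 to 124, at 3.28% to 4.70%, and below every larva. Of the 120 genes 2 had a mean on the log2(CPM + 1) scale above the larval mean in those 7 individuals, against 42.7% of all gene models. In the 4 deeper individuals the count was 5 (40.9% of all). The 2 genes were Aqu2.1.17441_001 and Aqu2.1.18578_001, named because the count is small, with larval means of 0.59 and 1.29. All 13 larvae were above each of the 4 deeper individuals for 28 of the 120 genes (0.724% of all).

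Later stages gave the same order in their unused individuals. At mat-formation the share of counts was 0.945% ± 0.433 over 25 individuals, and 3 of the genes had a mean above the larval mean (45.0% of all gene models). In the 3 of these individuals with at least 100000 counts it was 8 (23.3% of all). At tent-pole-formation the share was 0.736% ± 0.411 (n = 3) with 4 genes above the larval mean (10.8% of all), and in the 2 juveniles it was 0.553% and 0.993% with 1 gene above (11.0% of all). Most of these libraries are shallow, so that many gene models have no count in them. The larvae are of the same number set as these individuals, so the number set does not differ in this comparison.

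The most counted gene shows how far the number sets can differ at 1 stage. Aqu2.1.34371_001 had 260.2 to 5199 CPM with a median of 2073 in the 7 settled individuals numbered 1 to 100. The 3 numbered 101 to 124 had 7652 to 22866 CPM. The sets did not overlap, and the labels do not say how they differ in time after settlement or in handling. Aqu2.1.24135_001 differed the other way in its mean. It averaged 24.2 ± 25.8 CPM (n = 7) in the settled individuals numbered 1 to 100 and 1.47 ± 1.28 (n = 3) in those numbered 101 to 124. Its ranges overlapped, at 0 to 74.5 and 0 to 2.35 CPM, and rest on 18 counts or fewer in each individual.

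Contrasts between stages other than the larva were tested across all gene models. The choice holds a stage of such a contrast below the larva only where the individuals tested had entered the choice. It does not hold down the settled and mat-formation individuals that had no part in it, which are tested further below. The choice does not order the stages of a contrast. From cleavage to late ring, the start and end of brooding, 60 of the 120 genes passed the filter on low counts. In each contrast the filter can be passed through 1 stage alone. The direction of a gene so admitted is in part fixed by the filter. In edgeR's quasi-likelihood test with Benjamini-Hochberg adjustment 30 of the 60 were higher at late ring (23.4% of all 4529 tested) and 1 was lower (18.7% of all tested). The median log2 fold change was 1.19 over the 60 and -0.10 over all tested. The 30 genes rose by 1.16 to 7.27 log2 units. The genes grouped with late ring, of which 11 were called higher and 1 not called, were put there for a late ring mean above cleavage. The settlement group, whose placing does not order these stages, had 13 higher, 1 lower and 11 not called. The cleavage group, put there for a cleavage mean above late ring, had 6 not called and none called. Since the choice takes genes that are high in the larva, and late ring is the stage before it, the counts describe the level at which the genes stood before the larva.

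The widest rise was that of Aqu2.1.29052_001, from 16.2 ± 16.0 CPM (SD, n = 7) at cleavage to 1977 ± 1417 (n = 7) at late ring. Cleavage embryos had 0 to 38.1 CPM and late ring embryos 504.1 to 4230, with no overlap. The log2 fold change was 7.27 (SE 0.825, adjusted p = 1.72e-06 in edgeR with Benjamini-Hochberg adjustment). It passed the filter on low counts through late ring alone, so its direction is in part fixed. The gene was at 491.3 ± 128.1 CPM (n = 7) by cloud, then 334.0 ± 174.0 (n = 7) at ring, 2171 ± 687 (n = 13) in larvae and 5.32 ± 1.84 (n = 3) at chamber-formation. The most counted gene, Aqu2.1.34371_001, rose by 3.72 (SE 0.505, adjusted p = 1.05e-05 in the same test).

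The gene that fell was Aqu2.1.32257_001. Cleavage embryos had 107.3 to 327.4 CPM with a mean of 211.9 ± 86.1 (n = 7), and late ring embryos had 31.3 to 166.9 with a mean of 74.8 ± 45.1 (n = 7). The ranges overlapped, and the log2 fold change was -1.14 (SE 0.375, adjusted p = 0.0197 in edgeR with Benjamini-Hochberg adjustment). Its stage mean was lower at each stage from cleavage to late spot, where it was 83.5 ± 36.3 CPM (n = 7), was close to that at ring, and was 646.0 ± 339.0 (n = 13) in larvae. It is also the gene for which every larva, from 228.9 CPM up, was above every late ring embryo.

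**Figure D5:**
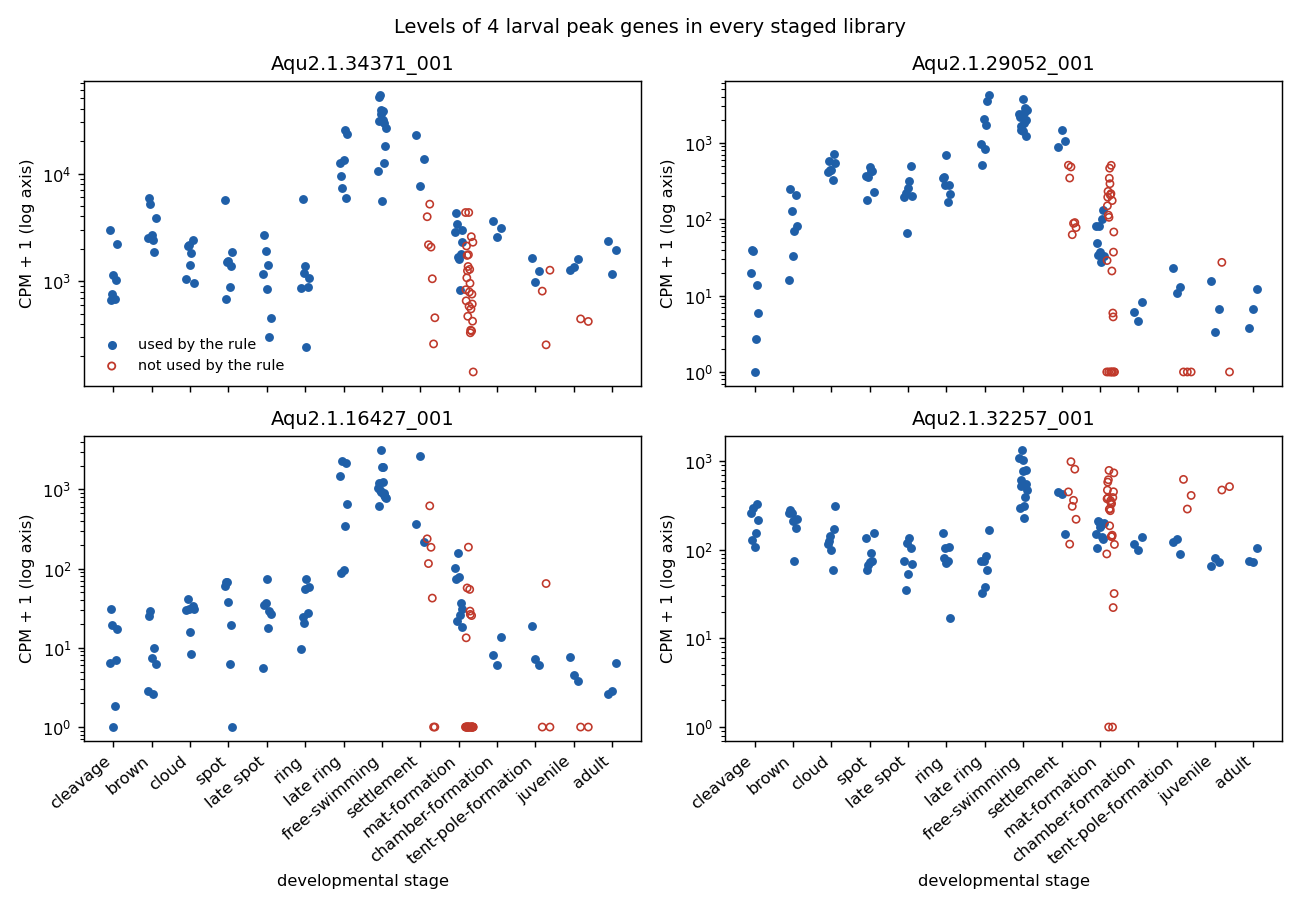
Levels of 4 larval peak genes in the individuals of every stage, as CPM + 1 on log axes, with individuals used in the choice filled and those not used open. Aqu2.1.29052_001 rises from cleavage to late ring and averages 5.32 CPM at chamber-formation. Aqu2.1.16427_001 and Aqu2.1.34371_001 stand high at late ring and in larvae. The 7 settled individuals not used lie below the 3 used for Aqu2.1.34371_001. For Aqu2.1.16427_001 they overlap, at 0 to 618.3 CPM in those not used and 217.6 to 2612 in those used. Aqu2.1.32257_001 is low in late ring embryos, at 166.9 CPM or less, and high in larvae.

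After the larva, the settled individuals numbered 1 to 100 were compared with late ring embryos, which share their number set. Of the 57 larval peak genes tested 16 were lower at settlement (12.3% of all 3404 tested) and 2 were higher (9.11% of all tested), by edgeR's quasi-likelihood test with Benjamini-Hochberg adjustment. The median log2 fold change was -1.03 over the 57 and -0.11 over all tested. Of the genes grouped with late ring, which were put there for a high mean in these same embryos, 8 were lower and 3 not called. The settlement group had 6 lower, 1 higher and 17 not called. Total counts do not overlap between these stages, at 300386 or less in the settled individuals and 617279 or more at late ring. With the log2 total in the model 0 of the 57 were called in either direction, as were 6 higher and 0 lower of all tested. That model cannot separate depth from stage here, so the loss of calls decides nothing about either. With the 4 settled individuals of at least 100000 counts 10 were lower and 1 higher, given without the share of all tested.

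The lowest fold change was that of Aqu2.1.28748_001. It had 66.1 to 982.2 CPM in late ring embryos and 0 to 67.6 in settled individuals, 4 of 7 having any count, with means of 428.0 ± 361.8 (n = 7) and 16.6 ± 24.9 (n = 7). The ranges overlapped only between 66.1 and 67.6 CPM, and the log2 fold change was -4.28 (SE 0.786, adjusted p = 0.00136 in edgeR with Benjamini-Hochberg adjustment). The gene passed the filter on low counts through late ring alone, so its direction is in part fixed. The most counted gene, Aqu2.1.34371_001, fell by 2.88 (SE 0.659, adjusted p = 0.00378 in the same test). The genes that rose were Aqu2.1.32257_001, from 74.8 ± 45.1 to 463.8 ± 318.4 CPM (2.62, SE 0.559, adjusted p = 0.00269), and Aqu2.1.21482_001, from 25.1 ± 20.3 to 130.4 ± 155.3 CPM (1.95, SE 0.693, adjusted p = 0.0465), both by edgeR. The latter is named because the count is small. Aqu2.1.32257_001 is also the gene that was lower at late ring than at cleavage.

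From settlement to mat-formation among individuals numbered 1 to 100, 16 larval peak genes could be tested in these shallow libraries. By edgeR 0 of them were higher (0.0% of all 692 tested) and 1 was lower (1.45% of all tested) after Benjamini-Hochberg adjustment. DESeq2 called 0 higher and 3 lower. In edgeR 5 of the 16 had an unadjusted p under 0.05, as had 84 of all 692 tested. The gene that fell was Aqu2.1.20504_001, from 753.2 ± 730.5 CPM (n = 7) to 247.0 ± 183.2 (n = 25), with a log2 fold change of -1.66 (SE 0.451, adjusted p = 0.0418 in edgeR). That call was lost with DESeq2's size factors, with the log2 total in the model and in the libraries of at least 100000 counts.

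Between settlement and juvenile, both numbered 101 to 124, 72 of the genes were tested with 3 individuals each. In edgeR's quasi-likelihood test with Benjamini-Hochberg adjustment 41 were lower in juveniles (13.6% of all 8263 tested) and 0 were higher (16.8% of all tested). In all, 48 of the 72 had an unadjusted p under 0.05, as had 3308 of all 8263 tested, and DESeq2 called 0 higher as well. The median log2 fold change was -1.31 over the 72 and 0.06 over all tested. The 41 genes fell by 0.89 to 8.16 log2 units. Of the genes grouped with settlement 21 were lower and 7 not called, a direction that their grouping fixes. Of those grouped with late ring 9 were lower and 5 not called, and of those grouped with cleavage 4 were lower and 2 not called. Since the choice takes genes that are high in the larva, and settlement is the stage next to it, the counts describe the level at which the genes stood after the larva.

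The steepest fall was that of Aqu2.1.16427_001. The 3 settled individuals had 217.6, 366.4 and 2612 CPM and the 3 juveniles 2.83, 3.55 and 6.60. The groups did not overlap, and the log2 fold change was -8.16 (SE 1.15, adjusted p = 0.00113 in edgeR with Benjamini-Hochberg adjustment). The gene passed the filter on low counts through the settled individuals alone, so its direction is in part fixed. In larvae this gene had 612.3 to 3141 CPM with a median of 971.3, and from cleavage to ring its stage means were 37.7 CPM or less. The smallest fall among the called genes was that of Aqu2.1.28825_001, from 237.5 ± 44.6 CPM (n = 3) to 154.3 ± 35.6 (n = 3), with a log2 fold change of -0.89 (SE 0.238, adjusted p = 0.0225 in edgeR). Aqu2.1.34371_001 fell by 3.64 (SE 0.462, adjusted p = 0.000695 in edgeR).

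Between juveniles and adults no larval peak gene was called. Of 67 genes tested 0 were higher in adults (2.61% of all 8812 tested) and 0 were lower (1.17% of all tested) by edgeR with Benjamini-Hochberg adjustment. An unadjusted p under 0.05 was found for 7 of the 67 and for 1468 of all 8812 tested. DESeq2 called 1 higher, Aqu2.1.30517_001, named for that reason, with a log2 fold change of 1.75 (adjusted p = 0.0328). With 3 individuals per stage these counts do not show that the levels were the same.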

How the data were processed

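Polyadenylated RNA of single individuals was extracted with TRIzol and amplified by CEL-seq, per the labels' protocols. CASAVA 1.8, HTSeq 0.5.4p3 and Bowtie2 2.1.0 are listed, without settings, per the submitters' processing notes. Build, annotation and use of molecular barcodes were not given in the sources used here. Values in the deposited table are raw whole-number counts. The table was held in part and 1 incomplete line was left out. All columns belong to the series (0 others), and 0 identifiers matched the table of gene names.

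CPM and log2(CPM + 1) were computed from the deposited counts, with a pseudocount of 1 CPM. The genes and their grouping were chosen with earlier results of these data known. Tests used edgeR 4.0.16 in R 4.3.3 (quasi-likelihood, TMM, filterByExpr with a minimum count of 10 and a total of 15), two-sided, with Benjamini-Hochberg adjustment over all gene models tested and a threshold of 0.05. They were also run on simulated counts drawn with 1 common spread for every gene model. That run does not measure their error rate in these data. DESeq2 1.42.0 was a second tool. Replicates are numbered in accession order and pair nothing. The genes named are the 3 widest margins, the 2 most counted, the 2 most and 2 least variable at 50 CPM or more, the head of each nearest-stage group of 5 or more, 2 on either side of the edge, and the extreme called genes of each test. Other settings tried were the scaling, pseudocount, median, library set, filter, depth as a covariate, and leaving out libraries. Python 3.11.15, numpy 2.4.6 and pandas 2.3.3 were used.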

Additional observations from a re-analysis of the deposited data

Results flagged for a closer look

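Among the 18 groups of libraries examined, a library stood apart from its stage in 2 cases, and chance alone would set apart about 1 in 20 groups. Late ring replicate 7 had 9.83% of its counts in the 120 genes, against 2.37% to 4.18% in the other 6 late ring embryos. In it Aqu2.1.34371_001 held 2.31% of all counts, within the range of the other late ring embryos (up to 2.55%), while Aqu2.1.33581_001 held 1.40% (up to 0.225% in the others) and Aqu2.1.23375_001, named after its values were seen, 1.13% (up to 0.330%). Cloud replicate 1 had 1.57% of its counts in the genes, against 0.958% to 1.21% in the other 6. The individual with no stage label had 0.680% of its counts in the genes, 157 of 23082, with 49 of the 120 genes detected. A count of 0 would have allowed up to 0.013% by counting error alone (3 counts). It has no group to be compared with.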

How the results depend on the processing

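The list depends on the libraries that set the other stages and on the summary used. Of the 120 genes 68 were chosen again with medians over libraries, 52 with all libraries of every stage and 58 with all libraries of at least 100000 counts. With TMM scaling 90 were shared, with a pseudocount of 10 CPM 87, and among gene models passing the filter 100. Leaving out a larva shared 98 to 110, leaving out a run of 8 numbers 88 to 99, and leaving out late ring replicate 7, an alternative added after seeing the data, 115. The margin stayed above 0 for all 68 genes of at least 50 CPM except under medians and without the runs 101 to 108 or 117 to 124, where it did for 67.

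From cleavage to late ring 48 genes were higher without the filter on low counts, 2 were lower with DESeq2, and 3 were lower without late ring replicate 7 (added after seeing the data). For settlement (1 to 100) against late ring 40 were lower without the filter, and 1 was higher and 10 lower in libraries of at least 100000 counts. With the log2 total in the model, which cannot separate depth from stage there, 0 were called in either direction. For mat-formation against settlement 0 were lower with DESeq2 size factors, with the log2 total and at 100000 counts or more, 3 with DESeq2 and 12 without the filter. In adults against juveniles 1 was higher with DESeq2 and 1 without the filter. Against depth among larvae 4 were higher and 5 lower without the filter, and 0 to 1 were lower with a larva left out. The cause of these shifts was not tested, beyond the larger number of genes tested without the filter. Counts called under other settings, in this paragraph and the next, are given without the share of all gene models called. They describe the settings and are not a result about the larval peak genes.

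The labels give no replicate numbers, and the runs of 8 numbers share only a number. With a replicate block for the 3 runs 37 genes were lower in juveniles than at settlement, against 41, and 0 were called between adults and juveniles. Leaving out 1 individual gave 29 to 43 lower in juveniles. For the genes that the naming rule takes, no fold change or margin changed sign in a setting tried, and the margin of Aqu2.1.22638_001 was 0 without larva 7 and with medians. Outside that rule the margin of Aqu2.1.19104_001 was -0.01 without larva 11 and that of Aqu2.1.23990_001 was 0 without larva 7. Larval totals of 174505 to 981293 counts leave genes under 10 CPM resting on few counts.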

Other observations

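Among the 120 larval peak genes 2 pairs have consecutive identifiers, found after the list was seen. Their Spearman correlations over the 13 larvae were 0.495 for Aqu2.1.26960_001 and Aqu2.1.26961_001 and 0.473 for Aqu2.1.29051_001 and Aqu2.1.29052_001, against a median of 0.104 over all pairs of larval peak genes of at least 50 CPM. The 10th and 90th percentiles of all those pairs were -0.293 and 0.484, so neither pair stands far from the rest. Genome positions of these gene models were not used here, and the correlations are a description.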
